A study of Mus musculus with 6 samples.

Results

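The cytosolic ribosomal proteins were taken as the genes whose symbol in the expression table is Rpl or Rps followed by a number and, in some cases, a short suffix. The rule found 79 genes among the 23284 listed, 47 named for the large (60S) subunit and 32 for the small (40S) subunit. The rule uses names alone and no measured value.

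A cytosolic ribosome is made of ribosomal RNA and a fixed set of proteins, with nearly every protein present as a single copy. The 60S subunit joins amino acids and holds the tunnel through which the new chain leaves, and the 40S subunit binds the mRNA and reads its codons. The mRNAs of these proteins are among the most abundant in growing tissues such as the embryonic heart, and they begin with a pyrimidine-rich stretch, the 5′ TOP, through which mTOR signalling controls their translation.

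RNA was measured in ventricles of C57BL/6 embryos at embryonic day 9.5 by Smart-Seq2, a method that amplifies cDNA from little RNA (here 10 ng, with 12 cycles of preamplification and 9 of enrichment). The study's methods give the ES cells as C57BL/6 J-derived. The 3 WT embryos came from unedited ES cells. The 3 KD embryos came from ES cells in which both alleles of Tbx5ua, a long noncoding RNA gene next to Tbx5, carry a tandem repeat of the bovine growth hormone polyadenylation signal at the second exon, which ends transcription early. All 6 embryos were made by tetraploid complementation, so that the embryo derives from the injected ES cells. The edited cells were picked as clones, their selection cassettes were removed with Cre, and embryos were obtained from a pair of lines. The labels do not say which line gave which embryo.

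The table pools the embryos of each group into 1 FPKM value per gene, where FPKM is the number of fragments scaled to transcript length and to all mapped fragments, and it calls the KD group KO. Single embryos have no value in it, so the differences below have no replicate check, and no SD or p-value is given. The depth of each library is unknown. The ratio used throughout is log2((KD + 1)/(WT + 1)). The pseudocount of 1 shrinks the ratios of genes at low levels in both directions, strongly for those near 1 FPKM. Tbx5ua itself was not analysed here, so the labels of the groups were not checked with the targeted gene. The heart label was checked with 13 cardiomyocyte markers, which were all above 1 FPKM. They were not used to tell ventricle from atrium, and they held 5.42% of the summed FPKM in WT and 5.47% in KD.

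Ribosomal protein mRNAs were abundant and slightly higher in KD. Their levels added up to 139500.1 FPKM in WT against 151832.1 in KD, which is 16.2% of the sum over all genes in WT and 17.3% in KD. The 60S members went from 8.82% to 9.45% and the 40S members from 7.41% to 7.85%. Among the 100 highest genes, 36 were members in WT and 40 in KD. These sums and ranks leave out Actc1 and Rn45s, which had too many fragments to be given a level. The range was wide: 60 members were at 1000 FPKM or more in WT, 14 lay between 100 and 1000 FPKM, and 3 lay between 1 and 100 FPKM. The remaining members were Rpl39l, at 0.149 FPKM in WT and 0.172 in KD, and Rpl10l, which was listed at 0 in both groups. Both are paralogues known for expression in the testis.

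**Figure D1:**
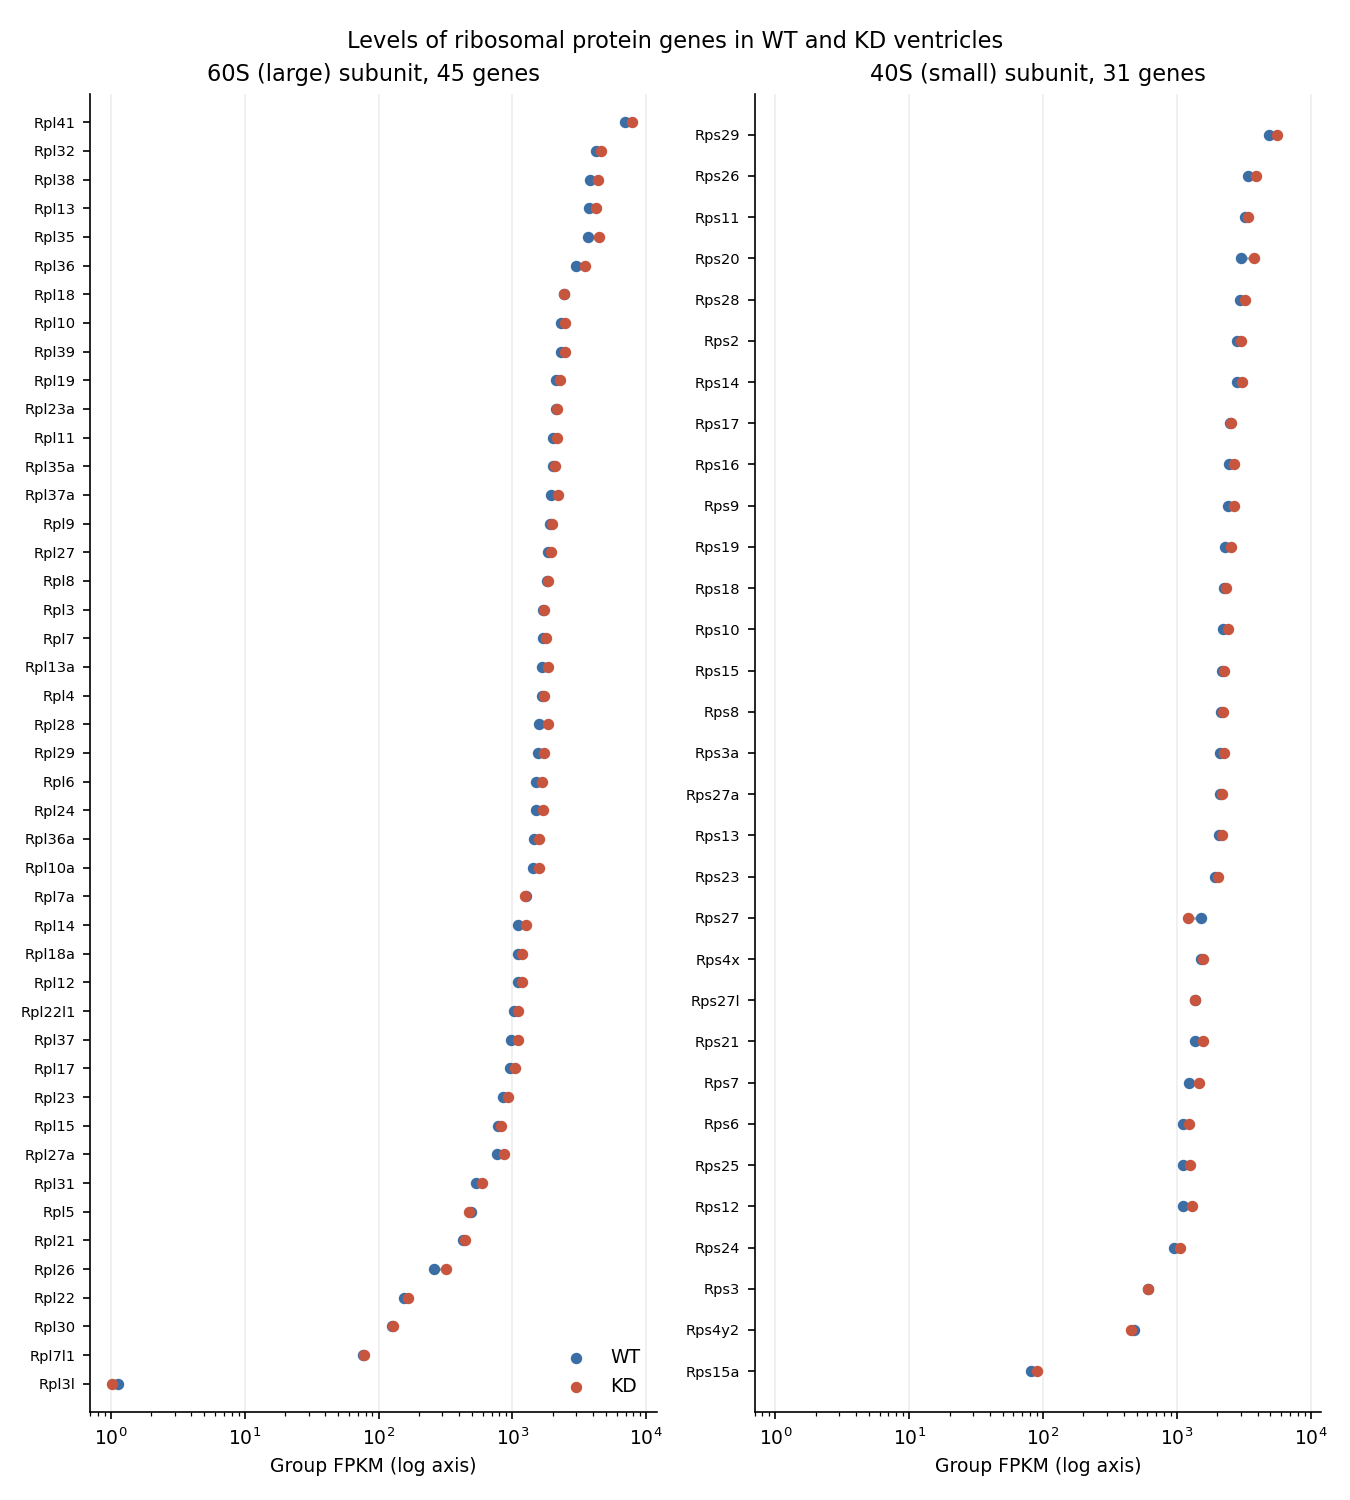
Group FPKM of 76 of the 77 ribosomal protein genes (1 higher in KD is not drawn) with a mean FPKM of at least 1, on a log axis, with 1 point for WT (blue) and 1 for KD (red) per gene, ordered by the WT value within each subunit. The KD point lies to the right of the WT point in 70 of the 76 genes, and Rps27 shows the widest gap in the other direction.

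Rpl41, which encodes the smallest protein of the ribosome, had the highest level of the members, at 6963 FPKM in WT and 7756 in KD. Only 6 genes of the table had a higher WT value, with Actc1 and Rn45s left out. Rps29, a small zinc-binding protein of the 40S head, followed at 4901 and 5608 FPKM. Rpl32 was at 4217 and 4590 FPKM, Rpl38 at 3827 and 4392 FPKM, and Rpl13 at 3742 and 4187 FPKM. Each of these 5 was higher in KD, with log2 ratios between 0.12 and 0.20. At the low end, after Rpl3l, stood Rpl7l1 (76.8 and 78.0 FPKM), Rps15a (81.8 and 90.5 FPKM), Rpl30 (127 FPKM in both groups) and Rpl22 (155.5 and 166 FPKM). The value of Rpl30 is that of its own row, which held 8.32% of the sum of the rows at its locus in WT. The order of the members was nearly the same in both groups (Spearman's rho 0.99 across 76 genes, which share their libraries and are not independent replicates).

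Of the 77 members with a mean FPKM of at least 1, 71 were higher in KD and 6 were lower, so that 92.2% were higher. Over all 11366 genes at that level 50.7% were higher, over the genes with a mean of at least 100 FPKM 54.8%, and over those with at least 500 FPKM, members included, 70.6%. The median log2 ratio was 0.11 over the members, 0.11 over the 45 members of the 60S subunit and 0.10 over the 32 members of the 40S subunit. Less the median of other genes of like transcript length and level, the medians were 0.07 for both subunits, with 62 of 76 members above 0, and with both groups rescaled to the same summed FPKM 63 of 77 members were higher. The median log2 ratio was 0.00 over all genes, and 0.03 over the 230 genes with at least 500 FPKM that are not ribosomal proteins. As a fold, the median member was 1.077 times as high in KD as in WT. The values of the members lay close together: 52 of the 77 log2 ratios fell between 0.05 and 0.20, and their SD across genes was 0.09.

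The differences were thus many but small. A 1.2-fold difference was used to name single genes. Past it, 3 members were higher in KD (3.9%), where 11.6% of all genes at a mean of at least 1 FPKM, 4.68% of those at 100 FPKM and 3.87% of those at 500 FPKM were. Only 1 member was lower by that margin (1.3%), against backgrounds of 9.38%, 3.4% and 3.23%. The share of members past 1.2-fold was thus below the background of all genes in both directions and near that of genes at 500 FPKM for the higher ones. No member passed 1.5-fold, which 2.05% of all genes did upwards and 1.36% downwards, or 2-fold, which 0.633% and 0.572% did.

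**Figure D2:**
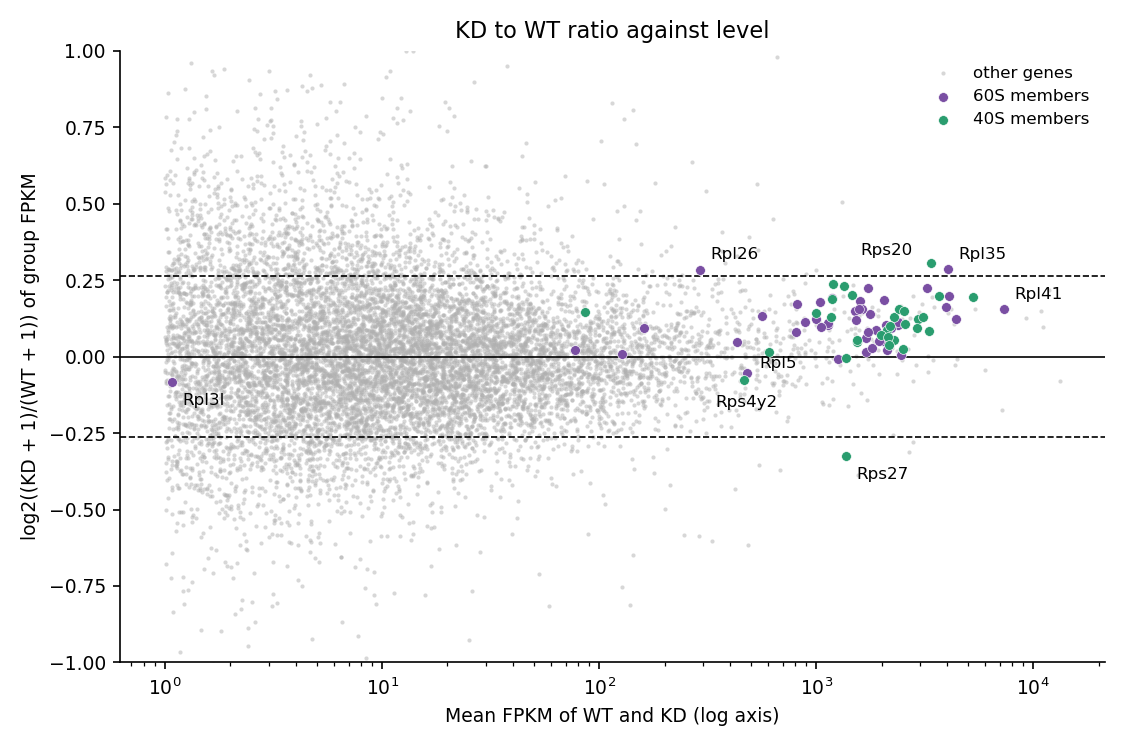
The log2((KD + 1)/(WT + 1)) of each gene with a mean FPKM of at least 1 against that mean on a log axis, with 60S members in purple, 40S members in green and other genes in grey. Dashed lines mark 1.2-fold, and 137 other genes lie beyond the plotted range. The members form a tight group above 0 at the right, with Rps20, Rpl35 and Rpl26 past the upper line and Rps27 past the lower one.

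The 3 members past 1.2-fold upwards encode proteins of both subunits. Rps20, of the 40S head, was at 3036 FPKM in WT and 3751 in KD (log2 ratio 0.30). Rpl35, which lies at the mouth of the exit tunnel, was at 3646 and 4443 FPKM (0.29). Rpl26, also at the exit tunnel, was at 261 and 319 FPKM (0.28) in its own row of the table. That row held 12.3% of the sum of the rows at its locus in WT and 14.2% in KD. The next were Rps12 of the 40S head (1101 and 1297 FPKM, 0.24) and Rps7 (1238 and 1454 FPKM, 0.23), both under the margin. The gaps between these 5 genes cannot be set against a spread between embryos. With both groups rescaled to the same summed FPKM, Rpl35 and Rpl26 were each at 0.25, under the margin, and Rps20 alone stayed past it.

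The lower members were 6. Rps27, a zinc-binding protein of the 40S subunit, was at 1522 FPKM in WT and 1214 in KD (log2 ratio -0.33), the value farthest from 0 among all members. Rpl3l, a paralogue of Rpl3 known from adult heart and skeletal muscle, was near the limit of 1 FPKM in both groups (1.13 and 1.01, -0.08). Rps4y2 was at 479 and 454 FPKM (-0.08). In RefSeq this symbol belongs to Rps4l, which GENCODE lists as a transcribed processed pseudogene, and in the table its row spans a locus shared with another gene. The other three were Rpl5 (488 and 471 FPKM, -0.05), Rpl7a (1257 and 1249 FPKM, -0.01) and Rps27l (1368 and 1364 FPKM, less than 0.01 below 0).

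The lower value of Rps27 in KD was not found once the rows at its locus were added together. At chr3:90212667-90213648 (mm10) the table holds a second row, named for Gm9846 and Rps27 jointly, which was at 2210 FPKM in WT and 2951 in KD (0.42, the opposite direction). Rps27 alone held 40.8% of the sum of both rows in WT and 29.1% in KD. The sum went from 3733 FPKM in WT to 4165 in KD. Its log2 ratio of 0.16 is within the range of the other members. Gm9846 is a RefSeq synonym of Rps27rt, an intronless gene at chr9:114982366-114982739, and the coding sequences of Rps27 and Rps27rt are identical over all 255 bases. The first 120 bases of both are shown with those of Rps27l because a read inside the coding region of the first pair has no base that tells the genes apart. Capitals mark bases of Rps27l that differ from Rps27, and the sequences are from GENCODE M21 (GRCm38).
Rps27: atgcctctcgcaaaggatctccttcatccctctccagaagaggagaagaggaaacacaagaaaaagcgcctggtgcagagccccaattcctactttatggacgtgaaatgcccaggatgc
Rps27rt: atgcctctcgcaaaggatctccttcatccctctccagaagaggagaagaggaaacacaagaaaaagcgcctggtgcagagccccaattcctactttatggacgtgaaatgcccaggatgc
Rps27l: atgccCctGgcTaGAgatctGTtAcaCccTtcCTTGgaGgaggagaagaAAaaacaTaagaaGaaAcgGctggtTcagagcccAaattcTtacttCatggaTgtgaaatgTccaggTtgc
Rps27l, a paralogue that p53 is known to activate, was 76.1% identical to Rps27 over the coding sequence, with 61 mismatches and no identical run longer than 11 bases. The level of the Rps27 row over that of Rps27l was 1.11 in WT and 0.89 in KD, which rests on the Rps27 row alone. The sum of both Rps27 rows, 3733 FPKM in WT and 4165 in KD, was above Rps27l (1368 and 1364 FPKM) in each group.

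Rpl26 and Rpl30 showed the same arrangement. At the Rpl26 locus, chr11:68901566-68904534, the table has a row named Gm15772, which was at 1870 FPKM in WT and 1925 in KD. GENCODE places the processed pseudogene Gm15772 on chromosome 5 and its sequence has 2 mismatches to Rpl26 in 438 coding bases. The sum of both rows was 2131 and 2243 FPKM, a log2 ratio of 0.07, so the sum was no longer past 1.2-fold. At the Rpl30 locus, chr15:34440506-34443276, the row Gm12191 was at 1395 and 1455 FPKM, which is 91.7% of the sum of both rows in WT and 92.0% in KD. With it, Rpl30 was at 1521 and 1582 FPKM (0.06), near the middle of the levels of the members. Gm12191 is a processed pseudogene on chromosome 11 with 1 mismatch to Rpl30 in 348 bases, which falls in the stretch of bases 1 to 120 shown here from GENCODE M21, with the differing base in capitals.
Rpl30: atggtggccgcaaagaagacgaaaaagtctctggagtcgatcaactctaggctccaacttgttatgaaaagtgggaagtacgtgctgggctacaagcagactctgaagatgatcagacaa
Gm12191: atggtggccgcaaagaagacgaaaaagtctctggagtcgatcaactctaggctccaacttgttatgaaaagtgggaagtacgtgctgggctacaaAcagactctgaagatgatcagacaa
Rpl34 is not a member by name, because its rows carry the pseudogene in their symbol. Its joint row with Rpl34-ps1 was at 480 FPKM in WT and 372 in KD (-0.36), the Rpl34-ps1 row at the same locus was at 1964 and 2153 FPKM (0.13), and the sum was at 2444 and 2525 FPKM (0.05). In all, 33 of the 79 members have a locus in the table that another row also names, and their values are less certain for that reason. The locus of Rps15 is named by 46 rows.

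**Figure D3:**
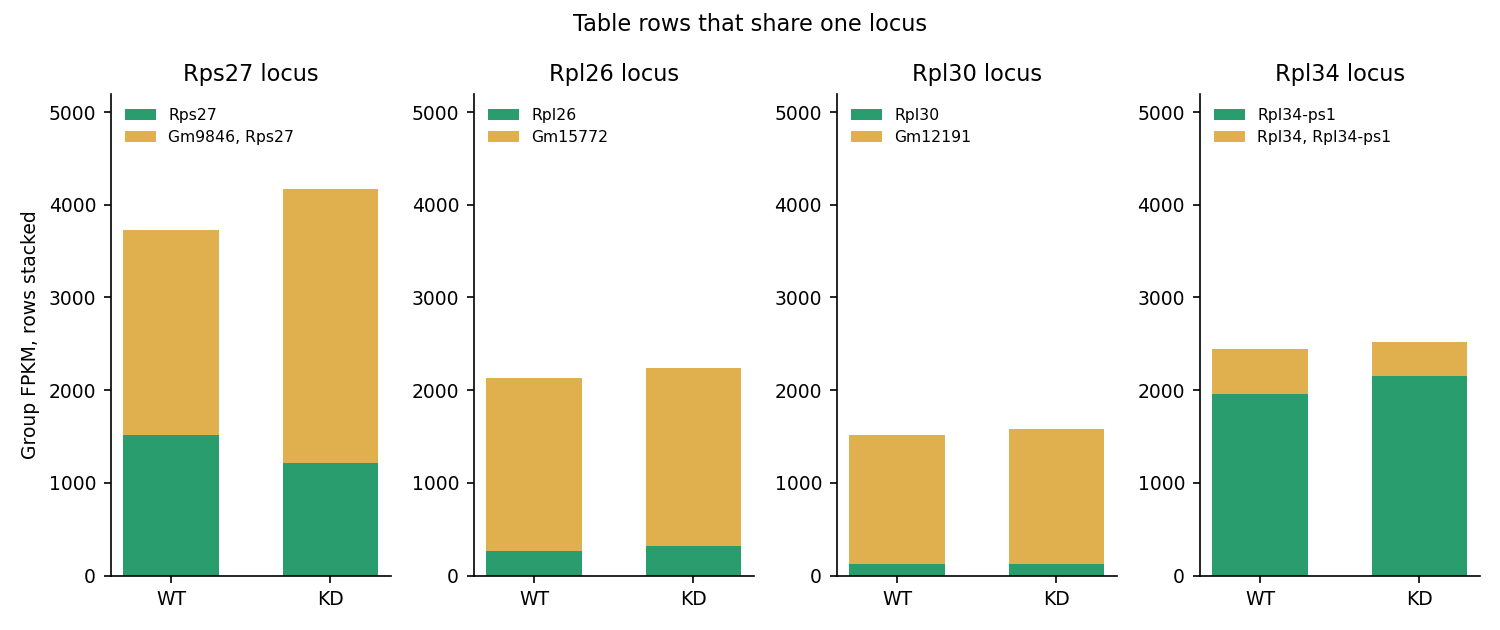
Group FPKM of the table's rows that share a locus with Rps27, Rpl26, Rpl30 or Rpl34, stacked, in WT and KD. The Rps27 row is shorter in KD while the stack as a whole is taller, and the Rpl26 and Rpl30 rows are the small lower parts of their stacks.

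By role in the 60S subunit, all 9 proteins around the exit tunnel were higher in KD (median log2 ratio 0.11). Of these, 2 were past 1.2-fold, beside backgrounds of 11.6% over all genes and 4.68% at 100 FPKM, and Rpl26 was not past it with its rows summed. Apart from Rpl35 and Rpl26 these were Rpl31 (536 and 588 FPKM, 0.13), Rpl17 (952 and 1037 FPKM, 0.12), Rpl39 (2291 and 2476 FPKM, 0.11), Rpl22 (0.09), Rpl19 (2132 and 2273 FPKM, 0.09), Rpl4 (1657 and 1727 FPKM, 0.06) and Rpl23a (2114 and 2144 FPKM, 0.02). The 5 proteins near the peptidyl transferase centre and the tRNA sites were all higher (median 0.10), from Rpl10a (1426 and 1581 FPKM, 0.15) to Rpl3 (1694 and 1713 FPKM, 0.02). Rpl10, which is added late in 60S maturation, was at 2303 and 2475 FPKM (0.10), Rpl36a at 1456 and 1581 FPKM (0.12) and Rpl8 at 1797 and 1833 FPKM (0.03). At the base of the stalk that binds translation factors, Rpl12 was at 1095 and 1178 FPKM (0.10) and Rpl9 at 1906 and 1974 FPKM (0.05). Rpl6, listed with them, was at 1493 and 1665 FPKM (0.16).

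Rpl5 and Rpl11 bind 5S rRNA and, outside the ribosome, hold back Mdm2, the ubiquitin ligase of p53. They went in opposite directions: Rpl11 was at 2017 FPKM in WT and 2167 in KD (0.10), while Rpl5 was lower in KD by 0.05 on the log2 scale. Both differences are under 1.2-fold, and the row of Rpl5 shares its locus with other rows.

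By role in the 40S subunit, each of the lists was higher throughout. At the mRNA exit and the E site, Rps26 was at 3417 and 3922 FPKM (0.20), Rps28 at 2955 and 3230 FPKM (0.13) and Rps14 at 2805 and 3052 FPKM (0.12). At the mRNA entry and the decoding centre the ratios were smaller, at 0.09 for Rps2 (2818 and 3007 FPKM), 0.07 for Rps23 (1936 and 2031 FPKM) and 0.02 for Rps3 (605 and 611 FPKM). Among the head and bridge proteins, Rps19 was at 2284 and 2545 FPKM (0.16), Rps13 at 2046 and 2175 FPKM (0.09), Rps18 at 2231 and 2317 FPKM (0.05) and Rps15 at 2165 and 2242 FPKM (0.05). Rps6, the target of S6 kinase, was at 1118 and 1222 FPKM (0.13), Rps25, which viral internal ribosome entry sites need, at 1108 and 1261 FPKM (0.19) and Rps27a, made as a fusion with ubiquitin, at 2092 and 2187 FPKM (0.06). With 1 value per group, no order among these roles can be told from the spread between embryos.

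The 18 members known from Diamond-Blackfan anaemia, an inherited failure of red cell production, had a median log2 ratio of 0.13, with 16 higher in KD. Rpl26 and Rpl35 were past 1.2-fold upwards and Rps27 downwards, beside backgrounds of 4.68% and 3.4% among genes with a mean of at least 100 FPKM, the level of all 18. With the rows at one locus summed, as above, Rpl26 and Rps27 were no longer past the margin. Rpl35 also has a locus that another row names, but its value was not summed with any other row. The 4 members on the X chromosome (Rps4x, Rpl10, Rpl36a and Rpl39) were all higher, with a median of 0.11. The members lie on 19 chromosomes, with 13 of them on chromosome 7.

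Levels of paralogues were compared within each group. Rpl22l1 was at 1022 FPKM in WT and 1092 in KD, which is 6.57 times the level of Rpl22 in WT and 6.58 times in KD, and the coding sequences of this pair are 70.2% identical. Rpl3 was over Rpl3l by 1500 times in WT and 1690 times in KD, and Rpl7l1 was at 0.0455 times the level of Rpl7 (1687 and 1782 FPKM) in WT and 0.0438 times in KD. Rpl36al, which the name rule leaves out, was at 1618 and 1652 FPKM, 1.11 times the level of Rpl36a in WT and 1.05 times in KD. Rps4x was at 1522 and 1575 FPKM (0.05), and it is 80.1% identical to Rps4l, the RefSeq gene for the symbol Rps4y2. The coding sequences of Rpl7 and Rpl7l1 were 55.2% identical and those of Rpl36a and Rpl36al 87.9%.

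The ribosomal proteins that the name rule leaves out had values like those of the members. Of 8 such genes, 7 were higher in KD and none passed 1.2-fold in either direction, with a median of 0.10. Rplp1, a protein of the stalk, was at 3905 FPKM in WT and 4477 in KD (0.20), and Rplp0, which anchors the stalk, at 2941 and 3041 FPKM (0.05). Fau, the ubiquitin-like fusion of Rps30, was at 1898 and 2277 FPKM (0.26), just under the margin. Gnb2l1, the scaffold protein Rack1 of the 40S subunit, was the lower one (945 and 914 FPKM, -0.05).

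Other genes of translation did not share the direction. The median log2 ratio was -0.03 over 6 elongation factor genes, of which 5 were lower in KD. With both groups rescaled to the same summed FPKM this median was -0.06. Eef1a1, which delivers aminoacyl-tRNA and whose mRNA also starts with a 5′ TOP, was at 4455 FPKM in WT and 4432 in KD (-0.01), and Eef2 at 542 and 520 FPKM (-0.06). Over 16 other mRNAs with a 5′ TOP the median was 0.00, with 8 higher and 8 lower. Among them Tpt1 was at 1274 and 1410 FPKM (0.15), Npm1 at 1485 and 1327 FPKM (-0.16), and Eif4a2 was past 1.2-fold downwards (138 and 112 FPKM, -0.29), as were 9.38% of all genes and 3.4% of those at 100 FPKM.

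Genes that make ribosomes lay mostly below 0. Over 43 ribosome biogenesis genes the median was -0.09, with 33 lower in KD, and at a mean of at least 100 FPKM it was -0.02. In this list 1 gene passed 1.2-fold upwards, Fbl, the methyltransferase of box C/D particles (136 and 166 FPKM, 0.29). The 3 that passed it downwards were Bop1 (58.2 and 44.7 FPKM, -0.37), Nmd3 (53.7 and 42.5 FPKM, -0.33) and Xpo1 (49.6 and 39.1 FPKM, -0.34). Bop1 acts in 60S processing, and Nmd3 and Xpo1 export the 60S particle from the nucleus. Calls of 1 and 3 in 43 do not exceed the backgrounds of 11.6% and 9.38%. Over 19 subunits and factors of RNA polymerases I and III the median was -0.08, with 15 lower, and Polr1a (8.69 and 5.50 FPKM, -0.58) and Polr3a (3.95 and 3.01 FPKM, -0.31), the largest subunits, were past 1.2-fold downwards. The precursor of ribosomal RNA has no measured value in the table.

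Over 24 genes of mTOR signalling, TOP control and the Myc and p53 factors the median was -0.04, and it turned to 0.04 at a mean of at least 100 FPKM. Past 1.2-fold upwards were Myc (15.1 and 21.2 FPKM, 0.46) and Akt1s1 (68.7 and 83.6 FPKM, 0.28). Past it downwards were Larp4 (13.9 and 9.98 FPKM, -0.44), Mycn (72.6 and 53.9 FPKM, -0.42), Cdkn1a (23.6 and 18.6 FPKM, -0.33), Mdm2 (28.7 and 23.2 FPKM, -0.30) and Tsc2 (13.2 and 10.6 FPKM, -0.29). The proportions of 2 in 24 and 5 in 24 stand beside the backgrounds of 11.6% and 9.38%.

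**Figure D4:**
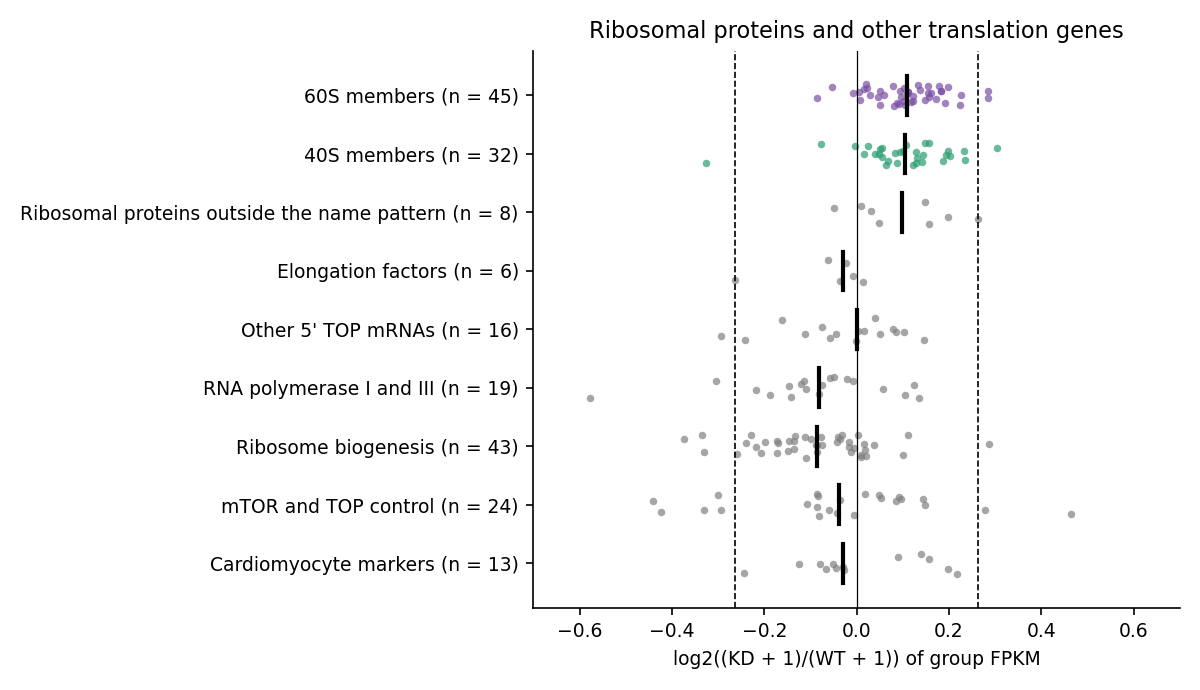
The log2((KD + 1)/(WT + 1)) of each gene in the lists of ribosomal proteins, other translation genes and cardiomyocyte markers with a mean FPKM of at least 1; each point is a gene, the black bar is the median and dashed lines mark 1.2-fold. The medians of the ribosomal protein lists lie between 0.10 and 0.11, and those of the other lists between -0.09 and 0.00.

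Transcript length moved with the ratio among highly expressed genes. Members have short transcripts, with a median length of 713 bases against 2117 bases for other genes with a mean FPKM of at least 1. For other genes with at least 500 FPKM the median length was 801 bases. Length here is the median over the annotated coding transcripts of a gene, which was found for 76 of the 77 members. Among other genes with at least 500 FPKM, the log2 ratio was lower for longer transcripts (Pearson's r -0.30, Spearman's rho -0.42 across 212 genes, which share their libraries and are not independent replicates). Among members r was 0.11 and rho -0.155, across the 76 with a length and a mean FPKM of at least 1, not 500.

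At transcripts under 500 bases, the 19 other genes with at least 500 FPKM had a median log2 ratio of 0.13, with 18 higher in KD, and the 12 members had a median of 0.13, with 10 higher. The medians were thus equal at 2 decimals in this class. Between 500 and 700 bases the medians were 0.08 over 61 other genes and 0.13 over 22 members, and all 22 members and 47 of the 61 other genes were higher. Between 700 and 1000 bases they were 0.00 over 63 other genes and 0.09 over 24 members. Between 1000 and 2000 bases they were -0.02 over 57 other genes and 0.11 over 9 members, all of which were higher, against 26 of the 57 other genes. The gap between members and other genes was thus found in the classes of 500 bases and more. Among members with at least 500 FPKM, only Rps20 has a longer annotated transcript (3706 bases), which exceeds its locus in the table. The part of transcript length, or of cDNA amplification, in the ratios of the members was not tested.

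**Figure D5:**
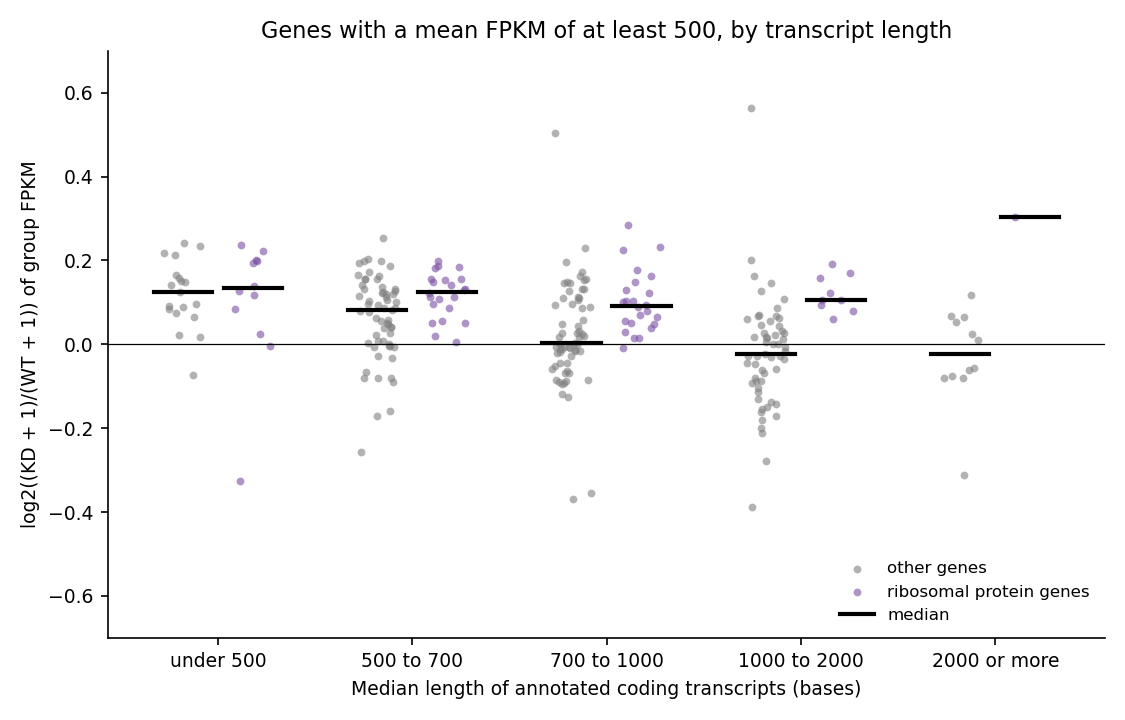
The log2((KD + 1)/(WT + 1)) of genes with a mean FPKM of at least 500 in classes of transcript length in bases, with ribosomal protein genes in purple, other genes in grey and black bars for medians. The medians of other genes go from 0.13 in the shortest class to -0.02 in the classes from 1000 bases, while those of members stay between 0.09 and 0.13 up to 2000 bases.

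Of the markers of other cell types, the epicardial list was higher in KD as a whole. Since bulk tissue was measured, a different number of cells of a type and a different amount of RNA per cell cannot be told apart. Of 7 epicardial markers, 6 had a mean FPKM of at least 1, and all 6 were past 1.2-fold upwards, where 11.6% of all genes were. Of these, Aldh1a2 (0.872 and 1.74 FPKM) reached that mean only through its KD value. Their sum over the list was 47.1 FPKM in WT and 96.0 in KD, with Msln near 0 in both groups. The 8 endothelial and endocardial markers summed to 155.5 and 169.6 FPKM, with Emcn past the margin upwards, a share near that background. The 7 erythroid markers found summed to 11451 and 11529 FPKM, with Alas2 and Gata1 among those past it upwards and Klf1 past it downwards. The 7 hepatic and yolk sac markers were near 0, with sums of 1.73 and 3.43 FPKM, and Alb and Fgb were listed at 0. The single one with a mean of at least 1 FPKM, Rbp4, was past the margin upwards (1.12 and 2.05 FPKM, 0.53). The median of the 13 cardiomyocyte markers was -0.03, and none was past 1.2-fold in either direction. The part of these cell types in the ratios of the ribosomal protein genes was not tested.

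Some sequence motifs were more frequent at the starts of members than at other starts, although most members lack each of them. The motifs were chosen after start sequences had been seen, so the shares describe these starts and are not a test. A RefSeq promoter of 300 bases (GRCm38.p6, 250 before and 50 after the start) was found for 59 of the 79 members, and in 45 of them the start equals the edge of the locus in the table. The letters CTTTC, on the sense strand and within 20 bases of the start, were present in 17 of 59 (28.8%), against 5.49% of all 32851 promoters and 5.91% of 186 genes with at least 500 FPKM that are not members. On the antisense strand the shares were 6.78%, 4.86% and 2.69% in the same order. The letters CCGGAAG, searched on either strand over the whole 300 bases, were in 39.0% of the members, 8.86% of all promoters and 21.5% of those genes with at least 500 FPKM. ATGGCGG was in 15.3%, 4.05% and 10.8%, and CACGTG, the E-box that Myc binds, in 6.78%, 7.15% and 10.8%. TATAAA was in 8.47%, 13.6% and 12.9%. A match describes letters only and does not show that a factor binds there.

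Start regions of 6 members are shown as examples with and without this motif. Each covers the 15 bases before and the 15 bases from the start, as RefSeq gives it on GRCm38.p6, with CTTTC in capitals. The members are Rpl35 (chr2:39005117-39005146, minus strand, ratio 0.29), Rpl28 (chr7:4792950-4792979, plus strand, 0.23), Rps27 (chr3:90213634-90213663, minus strand, -0.33), Rpl7a (chr2:26910792-26910821, plus strand, -0.01), Rps7 (chr12:28635939-28635968, minus strand, 0.23) and Rpl41 (chr10:128549154-128549183, minus strand, 0.16).
Rpl35: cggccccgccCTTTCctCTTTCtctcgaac
Rpl28: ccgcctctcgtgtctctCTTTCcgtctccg
Rps27: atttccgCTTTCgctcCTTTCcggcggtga
Rpl7a: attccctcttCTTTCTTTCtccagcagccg
Rps7: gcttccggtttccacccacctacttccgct
Rpl41: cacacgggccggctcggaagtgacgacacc
Among members with a mean FPKM of at least 1, the 16 with CTTTC in the window had a median log2 ratio of 0.13 (from -0.33 to 0.29, 13 higher in KD), and the 41 without it had a median of 0.11 (from -0.08 to 0.28, 39 higher). The ranges overlapped from -0.08 to 0.28, and only Rps27 lay far below that stretch. With the rows at its locus summed, Rps27 was at 0.16, higher in KD and inside that stretch.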

How the data were processed

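Reads were single-end, and libraries were made from total RNA of 3 WT and 3 KD ventricles. The submitters' processing notes name TopHat, Bowtie2, Cuffdiff and the build mm10; versions and annotation are not given in the sources used here. The authors deposited 1 Cuffdiff table with 1 FPKM value per gene and group, already scaled to transcript length and mapped fragments. Its fold change, test statistic, p-value, q-value and significance columns hold the authors' own comparison and were not used. No column held a single embryo, 0 per-sample columns went unused, and the planned fit over embryos was not run. 2 rows with too many fragments for Cuffdiff, Actc1 and the ribosomal RNA precursor Rn45s, were left out. Starts in the table count from 0 and are given with 1 added.

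Ratios were log2((KD + 1)/(WT + 1)), for genes with a mean FPKM of at least 1, and 1.2-fold was the margin for naming a gene. The members, lists and tests were chosen with earlier results of these data known, and the promoter motifs after start sequences had been seen. Genes named were members past the margin, the 5 highest and lowest by ratio and level, those under 1 FPKM, the members of the role and paralogue lists and, of other lists, genes past the margin and some of the highest. Rpl28, Fau and Gnb2l1 fall outside that rule and were chosen after their values were seen. Values of a few single genes that the rule names are not reported here. Alternatives were other pseudocounts, filters, scalings, margins and member sets. Summing rows of one protein at one locus and subtracting the median of other genes of like transcript length and level were added once the data had been seen. Scripts were tested on simulated data. Python 3.11.15, NumPy 2.4.6, pandas 2.3.3, Biopython 1.88 (global alignment of the coding sequences closest in length) and Matplotlib 3.10.9 were used.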

Additional observations from a re-analysis of the deposited data

How the results depend on the processing

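No paired analysis was possible because embryos were pooled in each group's FPKM; for the same reason the fits that leave out a replicate or add a replicate block were not run. Since no spread between embryos is known, a change at the second decimal was counted. The median log2 ratios, 0.1086 for 60S and 0.104 for 40S, stayed above 0 in all alternatives. They were 0.078 and 0.0734 with both groups rescaled to the same sum, 0.0937 and 0.1291 without members at a shared locus, 0.1047 and 0.1141 with rows of one protein summed, and 0.0728 and 0.0654 less the median of other genes of like length and level. For 60S alone the median was 0.1047 with no filter and 0.105 less the median of all genes.

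The members past 1.2-fold, 3 higher and 1 lower, became 1 higher and 1 lower after rescaling, 2 higher and 1 lower less the median of like genes, 1 higher and 0 lower without shared loci, 2 higher and 0 lower with summed rows, and 0 in both directions at 1.5-fold and 2-fold. Rescaling to the same sum left 63 of 77 members higher, and the subtraction by length and level left 62 of 76. The members past 1.2-fold upwards after that subtraction were Rps20 (0.3282) and Rpl35 (0.2815). Rps20 was set against genes of 2000 bases or more, by an annotated length that exceeds its locus in the table. Its place past the margin there rests on that length. Rps27 turned from -0.33 to 0.158 with summed rows. The other TOP mRNAs turned to -0.03 after rescaling, -0.0032 less the median of all genes and -0.0077 less that of like genes, and the mTOR list to 0.0399 at a mean of at least 100 FPKM. The share held by the members, 16.2% in WT and 17.3% in KD, was 17.9% and 19.2% without the 10 highest other genes, 18.2% and 19.4% with the proteins outside the name rule, and 16.4% and 17.5% without globin genes. CTTTC was found in 15.3% of the members within 10 bases of the start.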
